A study of Rattus norvegicus with 92 samples.

Results

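Of the 20508 annotated rows measured in the liver of air- and acrolein-exposed rats, 154 were lower in every acrolein liver than in any air liver and were present in more than a single tissue. These 154 liver-lowered rows were followed through nasal epithelium, lung, adrenal, adipose, muscle, hippocampus and hypothalamus. The rows were chosen from the liver values themselves, as CPM (the reads of a row relative to its library's total): the highest acrolein liver had to lie below the lowest air liver, the air liver mean had to be at least 2 CPM, and the tissue with the highest air mean had to be under 5 times the second highest of the 8 tissues. Their lower level in liver is therefore a property of the choice and not a result. Of the 154 rows, 152 carry Ensembl transcript identifiers and 2 carry gene identifiers. No symbols accompany the identifiers in the deposited tables, so the functions of the rows are not given here, and at most 4 rows are described by identifier.

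The animals were adult male Wistar-Kyoto rats, an inbred strain, exposed nose-only for 4 h to air or to acrolein that was stepped up at the start and then held at 3.16 ppm. Tissue was taken directly after the exposure. The 92 samples comprised, as air and acrolein respectively, 5 and 6 livers, 5 and 6 nasal epithelia, 8 and 6 lungs, 6 and 4 adrenals, 6 and 4 adipose samples, and 6 and 6 samples each of muscle, hippocampus and hypothalamus. All groups were of the same strain and sex, and a recovery time or second dose was not analysed here.

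Acrolein is a small reactive aldehyde of smoke and combustion air that binds thiol groups of glutathione and proteins. On inhalation it first meets the epithelium of the nose and airways, and the authors state that the parent compound does not spread through the body. The liver governs circulating glucose, lipids and many plasma proteins. It can be influenced through circulating metabolites and through neural and hormonal signals. RNA of a whole tissue is a mixture over its cell types, so fewer cells of a type and less RNA per cell cannot be told apart in these samples.

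Read totals recovered from the tables ran from 2513375 to 30194066 per library, with a median of 15694239. The first principal component of the liver table, 24.5% of its variance, set air replicates 1 and 2 apart, with scores of 92.8 and 72.1 against at most 24.98 in the other 9 livers. These are the livers with a capital prefix in their labels. Among adipose air samples, a pair of libraries shared the number 8, correlated at 0.968 over 13658 rows, against at most 0.959 in any other air pair, and entered every test as 1 averaged sample. Several labels carry an R, in 6 of the 11 nasal samples, 4 muscle, 3 hippocampus and 1 hypothalamus samples, and 2 acrolein lungs carry a capital prefix. The labels do not say what these marks mean.

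Without any overlap between groups, 182 rows (0.887% of all 20508) were lower in the acrolein livers. Of these, 15 were dropped for a low level and 13 more for restriction to a tissue. The level limits alone were met by 10467 rows, of which 1.47% became members, and these 10467 rows serve below as the reference for the 154. The same rule turned round, with every acrolein liver above every air liver, found 149 liver-raised rows.

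In liver, the acrolein mean was a median of 62.0% of the air mean over the 154 rows, with a range from 39.0% to 86.8%. On the log2 scale that is a median of -0.69, with quartiles at -0.84 and -0.54. The gap at the boundary was small for most of them. The lowest air liver exceeded the highest acrolein liver by a median ratio of 1.05 and by 1.2 or more in 13 rows. Just inside the limit stood ratios of 1.000002, 1.000889 and 1.002137, and just outside it 0.999989, 0.999887 and 0.999779. At the level limit, the lowest members had 2.14, 2.41 and 2.42 CPM in air and the nearest excluded rows 1.70, 1.44 and 1.30 CPM. At the tissue limit, the ratios were 4.83, 4.46 and 4.32 inside and 5.02, 5.83 and 5.86 outside.

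Air replicate 7 held the lowest air value for 75 of the 154 rows and air replicate 5 for 41, whereas air replicate 1 did so for 6. Acrolein replicate 15 held the highest acrolein value for 41 rows and replicate 11 for 39. Which rows entered the set thus depended on a few livers. With air replicate 7 left out, 452 rows met the rule, without acrolein replicate 15 it was 310, and without air replicate 5 it was 285. When air replicates 1 and 2 were both set aside, 238 rows met it, including 152 of the 154. For these same 154 rows, the median log2 change was then -0.59. With the authors' normalized values in place of CPM, 197 rows met the rule and 123 were shared, which is 79.9% of the members and 62.4% of the 197.

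Expression in more than 1 tissue of the air-exposed rats is partly built into the rule, which drops rows restricted to a tissue. The reference rows meet the same limits. An air mean of 2 CPM or more was found in all 8 tissues for 125 rows, or 81.2%, against 85.4% of the reference rows. In hypothalamus, hippocampus and muscle, 1 row each had an air mean of 0. The 154 rows were highest in nasal epithelium more often than in any other tissue, in 44 cases or 28.6%, against 15.6% of the reference rows. Liver was the highest tissue for 23 rows, adipose for 20, adrenal for 19, hypothalamus for 15, lung and muscle for 14 each, and hippocampus for 5. Lung led for 9.09% of them and for 18.4% of the reference rows, liver for 14.9% and 7.18%, and hippocampus for 3.25% and 11.2%. Muscle was the tissue of lowest level for 74 of the 154. The reference rows also had their lowest median in muscle, at 13.7 CPM.

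**Figure D1:**
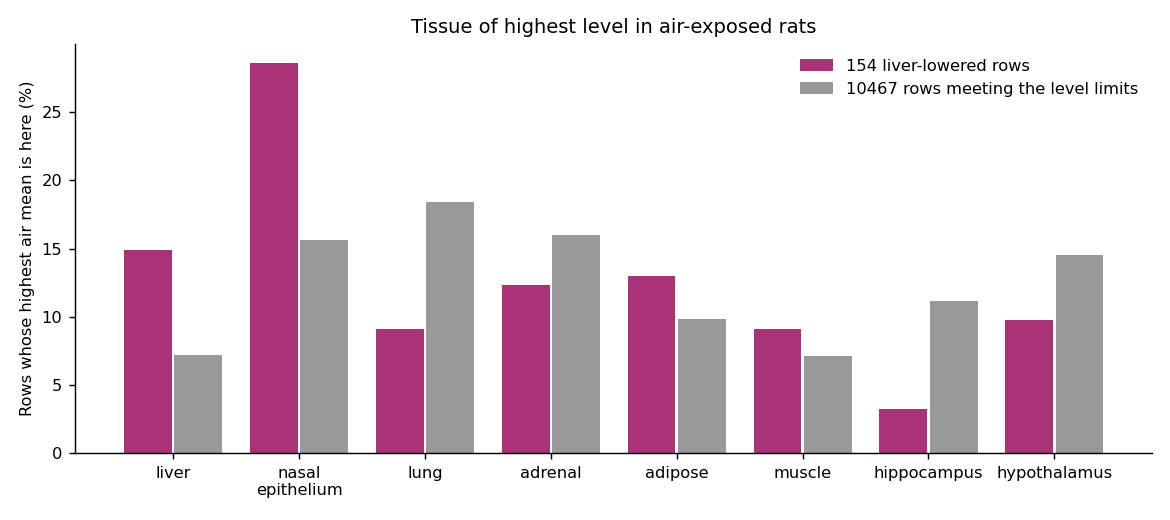
Bars give the percent of rows whose highest air mean CPM lies in each tissue, for the 154 liver-lowered rows and for the 10467 rows that meet the level limits. Nasal epithelium leads with 28.6% of the 154 rows against 15.6% of the reference rows. Liver holds 14.9% against 7.18%, and hippocampus 3.25% against 11.2%.

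Their summed level in air was 8332 ± 1584 CPM (SD, n = 5) in nasal epithelium, 8277 ± 1899 (n = 5) in adipose, 8179 ± 816 (n = 5) in liver, 7542 ± 1227 (n = 6) in adrenal and 6715 ± 897 (n = 8) in lung. It was 5457 ± 1043 (n = 6) in hypothalamus, 5404 ± 593 (n = 6) in hippocampus and 4815 ± 602 (n = 6) in muscle. Neighbours in this order differed by less than the larger of their SDs, except lung and hypothalamus. CPM across tissues also depends on what else a tissue expresses, and the 10 highest rows took 11.3% of the values in one nasal sample and 35.9% in another.

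After acrolein, limma called none of the 154 rows lower in any of the 7 other tissues. The test across all rows called 1 of them in nasal epithelium, where it rose, and 0 in the other 6 tissues. Over all rows tested, it called 0.651% in nasal epithelium and 0.00499% in lung. In adrenal, adipose, muscle, hippocampus and hypothalamus it called 0.0%, so the lack of calls was not particular to the 154. The median log2 fold change of the 154 rows lay above 0 in nasal epithelium, lung, hippocampus and hypothalamus. It lay below 0 in adrenal, adipose and muscle. The reference rows had medians between -0.04 and 0.02 in all 7. In every tissue the 149 liver-raised rows had a median on the opposite side of 0 from the liver-lowered rows. After every sample was rescaled to the same total, muscle was the exception, with the liver-raised rows at -0.05 while all rows were at -0.11. These medians describe sets that were chosen on liver values, and no test was made of a set. A fit in all 7 tissues was available for 153 rows. Of these, 80 had a higher mean log2 value in all of nasal epithelium, lung, hippocampus and hypothalamus. In all of adrenal, adipose and muscle, 72 had a lower one, and 28 did both. The tissues were grouped here by the signs of these rows' own medians, and no share of the reference rows is given. The rows also shifted together from sample to sample, so these counts are not read as a shared pattern.

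**Figure D2:**
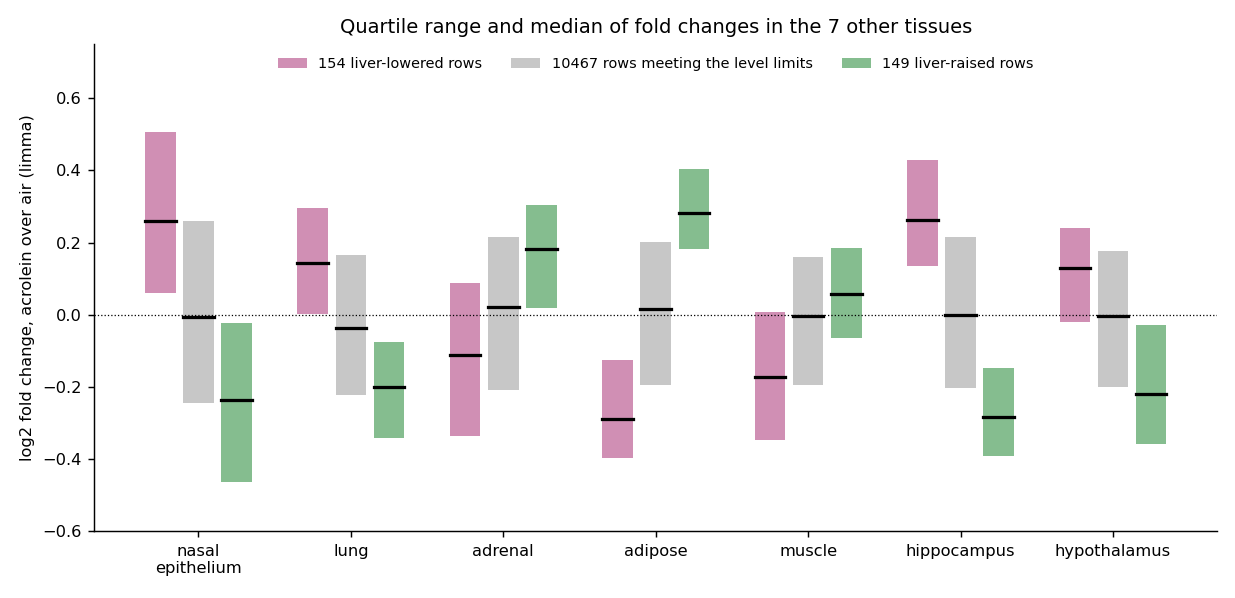
For each of the 7 tissues, bars span the quartiles and black lines mark the median of the log2 fold change of acrolein over air (limma on log2 of normalized counts plus 1). The liver-lowered rows have medians from -0.29 in adipose to 0.26 in nasal epithelium and hippocampus, and the liver-raised rows lie on the other side of 0 in each tissue.

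On the same scale, no row of the 153 was lower after acrolein in all 7 other tissues. Of the 10433 reference rows with a fit in all 7, 165 were, or 1.58%. In none of the 7 tissues lower was 1 row of the 153 (0.654%), against 2.14% of the reference rows. With shares this low, counts of 0 and 1 are not read as a difference. Of the 153 rows, 39 had a lower mean in 2 tissues, 41 in 3 and 29 in 4. The corresponding shares are 25.5%, 26.8% and 18.95%, against 15.4%, 20.5% and 24.9% of the reference rows.

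Nasal epithelium is the tissue that inhaled acrolein meets first. The 154 rows summed to 8173, 9233, 6968, 6754 and 10532 CPM in the air samples and from 7853 to 10454, with a median of 9536, in the 6 acrolein samples. These ranges overlapped. A member median above the air mean was found in 5 of the 6 acrolein samples and in 3 of the 5 air samples. By limma, 1 row was called, against 132 of 20289 rows tested (0.651%), and that row was higher after acrolein. edgeR also called 1, and DESeq2 called 5, of which 4 were higher and 1 was lower. For edgeR and DESeq2 no share over all rows is given, here or in the tissues below. Their counts therefore do not tell whether the 154 rows differed from the rest. The median log2 fold change of the 154 was 0.26, with 129 higher and 25 lower. The reference median was -0.01. At an unadjusted p under 0.05, 22 of the 154 rows were higher and 1 was lower, or 14.3% and 0.649%, against 6.86% and 5.37% of all rows tested. In this tissue and those below, the rows also shifted together from sample to sample. Such counts are therefore not counts of independent rows. Without air replicate 6 the median was 0.16. In the 5 samples whose labels carry no R, it was -0.00. That limit removes 3 of the 5 air and 3 of the 6 acrolein samples. Among the removed air samples, replicates 5 and 6 had the lowest member medians of the air group, at -0.30 and -0.45, and replicate 4 the highest, at 0.36. A part of the label mark therefore cannot be told apart from the loss of these samples.

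In lung, the summed level ran from 5216 to 8147 CPM, with a median of 6527, in 8 air samples. It ran from 5038 to 11847, with a median of 7731, in 6 acrolein samples. Acrolein replicates 13, 14 and 15 held 10532, 9128 and 11847 CPM, above every air lung, and acrolein replicates 9, 10 and 12 held 5668, 6335 and 5038, all within or below the air range. The acrolein group was thus split, with no value between 6335 and 9128. In the same 3 high samples, 18513 to 19010 rows were above 0, against 17726 to 18433 in the other 3 acrolein lungs, and read totals overlapped. The part of either in the result was not tested. Limma called 0 of the 154 rows, as did edgeR, and DESeq2 called 1, which was higher. Over all rows limma called 1 (0.00499%). The median log2 fold change was 0.14, with 116 of 154 higher, and 15 rows (9.74%) were higher and 0 lower at an unadjusted p under 0.05, against 4.38% and 3.29% of all rows tested. It was 0.00 without acrolein replicate 15, 0.05 without replicate 13, 0.09 without replicate 14 and 0.07 without air replicate 6. Without acrolein replicate 9 it was 0.24 and without replicate 12 it was 0.28. With acrolein replicates 14 and 15, the samples with a capital prefix, both left out, it was -0.07.

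Adrenal, the gland that releases corticosterone and catecholamines in stress, showed the opposite side. The summed level ran from 6542 to 9898 CPM, with a median of 7141, in 6 air adrenals and was 7026, 5952, 7825 and 6505 in the acrolein adrenals. The 2 lowest adrenals were both from the acrolein group, and the rest overlapped. Limma, edgeR and DESeq2 called 0 of the 154 rows, and limma called 0 of all rows (0.0%). The median log2 fold change was -0.11, with 101 lower and 53 higher, against a reference median of 0.02. At an unadjusted p under 0.05, 9 rows (5.84%) were lower and 2 (1.30%) were higher, against 4.22% and 3.32% of all rows tested. Without acrolein replicate 10 the median was -0.03, without air replicate 2 it was -0.05, and without acrolein replicate 11 it was -0.18. Rescaling every sample to the same total moved the median of all rows by more than 0.1, to -0.15, and that of the 154 rows to -0.26.

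In adipose tissue, the store of triglyceride and source of circulating free fatty acids, the 154 rows were lower on average. The air samples summed to 9808, 9096, 7662, 9590 and 5227 CPM, the last being the averaged pair, and the acrolein samples to 7834, 7097, 5935 and 6598. The averaged air pair held the lowest sum of all 9 samples, and 3 of the other 4 air samples lay above all 4 acrolein samples. Limma, edgeR and DESeq2 called 0 of the 154, and limma called 0 of all rows (0.0%). The median log2 fold change was -0.29, and 137 of 154 rows were lower. At an unadjusted p under 0.05, 3 rows (1.95%) were lower and 0 were higher, against 1.5% and 1.21% of all rows tested. The median was -0.14 without acrolein replicate 14, -0.41 without the air pair and -0.18 with the pair kept as 2 samples. All 4 acrolein samples had a member median below the air mean, from -0.59 to -0.06, as did 2 of the 5 air samples. Normalized counts of 2 rows were lower in each acrolein sample than in any air sample, or 1.30% of the 154, against 0.486% of all rows tested.

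The same direction held on average in muscle, with 113 of 153 rows tested lower and a median log2 fold change of -0.17. Sums ran from 4014 to 5489 CPM, with a median of 4968, in air muscle and from 3035 to 4944, with a median of 4599, after acrolein. Acrolein replicates 10 and 9 held the lowest sums, 3035 and 3839, and the other 4 acrolein samples lay within the air range. Limma, edgeR and DESeq2 called 0 of these rows, and limma called 0 of all rows (0.0%). At an unadjusted p under 0.05, 7 rows (4.58%) were lower and 0 were higher, against 1.95% and 1.04% of all rows tested. Without acrolein replicate 10 the median was -0.07. Rescaling to the same total moved the median of all rows to -0.11 and that of the 153 to -0.28.

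In hippocampus, a region of memory that is rich in glucocorticoid receptors, 135 of 153 rows were higher after acrolein, with a median log2 fold change of 0.26. The summed level ran from 4275 to 6038 CPM, with a median of 5514, in air. It ran from 5067 to 7646, with a median of 6359, after acrolein. Acrolein replicates 10, 12 and 14, at 7646, 7200 and 7549 CPM, lay above every air sample, and the other 3 acrolein samples, at 5519, 5217 and 5067, lay within the air range. Limma, edgeR and DESeq2 called 0 of the rows, and limma called 0 of all rows (0.0%). At an unadjusted p under 0.05, 5 rows (3.27%) were higher and 0 lower, against 2.15% and 2.16% of all rows tested. With any 1 sample left out, the median stayed between 0.18 and 0.33.

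In hypothalamus, which sets the stress axis in motion, the median was 0.13, with 111 of 153 rows tested higher, and it rested on a single library. Summed levels ran from 4282 to 7237 CPM, with a median of 5333, in air. After acrolein they were 5482, 5190, 10895, 4904, 5584 and 6670. Acrolein replicate 11, the one with an R in its label, held 10895, with 146 rows above their air mean, and the other 5 acrolein samples lay within the air range. This library had 14177753 reads and 18711 rows above 0, both within the range of the other hypothalamus samples. Its 10 highest rows took 4.68% of its values, the lowest share among the hypothalamus samples. The part of any of these in the result was not tested. Without this library the median was -0.03. Without air replicate 5 or 8 it was 0.08 and 0.07. All 3 tools called 0 of the rows, and limma called 0 of all rows (0.0%). At an unadjusted p under 0.05, 1 row was higher and 1 lower, or 0.654% each, against 0.97% and 1.72% of all rows tested.

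**Figure D3:**
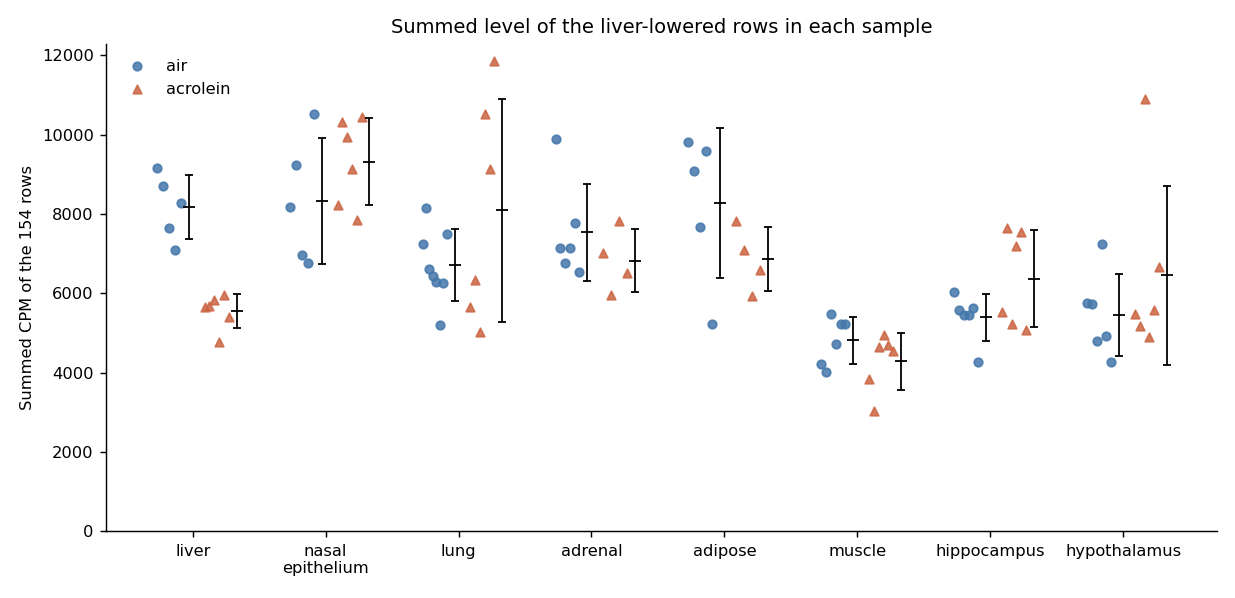
Each point is the summed CPM of the 154 liver-lowered rows in 1 sample, by tissue and exposure, with black bars at the mean ± SD. The liver groups are apart because the rows were chosen for it, whereas air and acrolein overlap in the 7 other tissues, and 3 acrolein lungs and acrolein hypothalamus replicate 11 stand high.

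The 154 rows moved together from sample to sample within an exposure group. After each group mean was subtracted from the log2 values, the mean correlation over all pairs of the rows was 0.48 in lung (14 samples), 0.38 in nasal epithelium (11), 0.37 in hypothalamus (12), 0.32 in adipose (9), 0.27 in hippocampus (12), 0.18 in muscle (12) and 0.17 in adrenal (10). It was 0.23 over the 11 livers, where the rows were chosen on the same values, so the liver figure is given as a description of the choice. Over all pairs of the reference rows it was between 0.00 and 0.01 in each tissue. A scaling by size factors holds an average over so many mixed rows near 0. The reference value is therefore no measure of how strongly a smaller set, chosen for its direction, moves together. The samples that enter such a correlation share one library each, so depth, composition and RNA quality act on all rows at once, and their part was not tested. With any 1 sample left out, the mean correlation of the 154 stayed at or above 0.41 in lung, 0.32 in nasal epithelium, 0.25 in adipose and 0.22 in hippocampus. It fell to 0.18 in hypothalamus without acrolein replicate 11, to 0.09 in adrenal without air replicate 2 and to 0.09 in muscle without acrolein replicate 10. In lung, 148 of the 154 rows correlated positively with the sum of the others, and the lowest such number was 135 of 153, in muscle.

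The rows shifted widely between samples of the same group, with a span above their median liver difference in 6 of the 14 groups of the other tissues. Measured as the median log2 deviation of the 154 rows from the air mean, single samples ranged from -0.53 to 0.80 within the acrolein lungs, a span of 1.33. The span was 1.00 in the acrolein hypothalami, 0.86 in the air adipose samples, 0.81 in the air nasal samples, 0.76 in the air lungs and 0.75 in the acrolein muscles. The same median over the reference rows stayed within -0.05 and 0.05 in every sample, but a scaling by size factors holds the median of so many rows near 0 and it is no measure of how far a smaller set can move. In liver, the span was 0.39 among air samples and 0.32 among acrolein samples, which the rule itself keeps small by asking for groups that do not overlap.

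The liver-raised rows moved the other way. When each sample was set against the mean of its own group, the liver-lowered and the liver-raised rows shifted in opposite directions in 73 of the 80 samples of the 7 other tissues, and in all 12 hypothalamus samples. The mean correlation between a row of one set and a row of the other was -0.54 in lung, -0.40 in hypothalamus, -0.39 in adipose, -0.32 in nasal epithelium, -0.27 in hippocampus, -0.22 in muscle and -0.21 in adrenal. Hypothalamus acrolein replicate 11 stood 0.85 above the air mean in the liver-lowered rows and at -0.90 in the liver-raised rows, lung acrolein replicate 15 at 0.80 and -0.98, and muscle acrolein replicate 10 at -0.67 and 0.58.

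**Figure D4:**
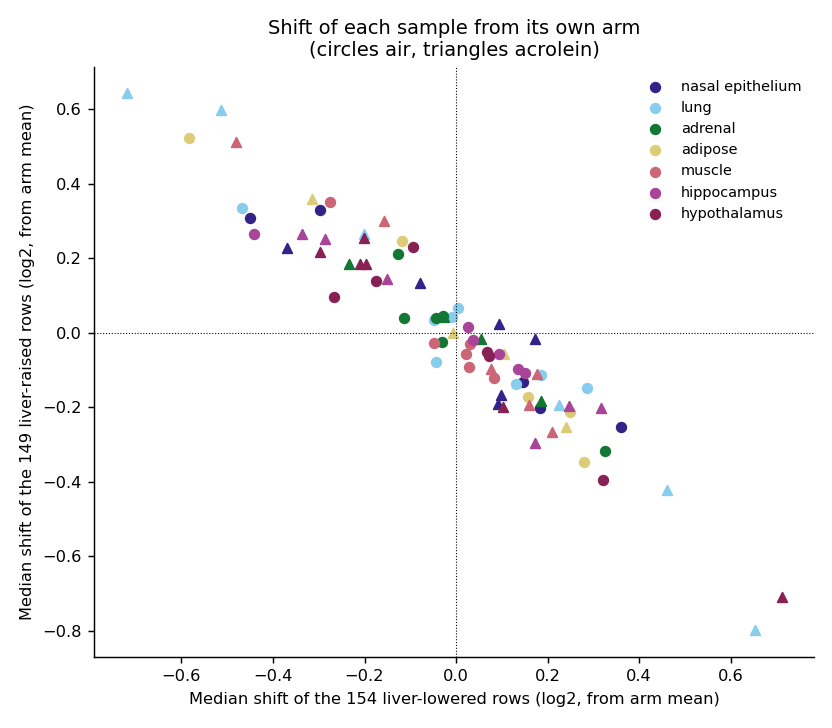
Each point is 1 sample of the 7 other tissues, placed by the median log2 shift of the 154 liver-lowered rows (horizontal) and of the 149 liver-raised rows (vertical) from the mean of its own tissue and exposure group. The points fall along a descending line through the origin, with opposite shifts in 73 of 80 samples.

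The fold changes were also compared between rows of low and high level in liver. In hippocampus, the median log2 fold change was 0.30 for the 55 rows under 10 CPM in air liver, 0.26 for those from 10 to 100 CPM and 0.22 for the 25 rows at 100 CPM or more. In adipose the medians were -0.31, -0.29 and -0.21, and in nasal epithelium 0.37, 0.25 and 0.15. In adrenal they were -0.16, -0.13 and 0.01. The medians did not move steadily toward 0 with level in lung, at 0.13, 0.15 and 0.16, in muscle, at -0.10, -0.24 and -0.10, or in hypothalamus, at 0.14, 0.12 and 0.13. Split by the tissue of their highest air level, the 44 rows highest in nasal epithelium had a median of 0.24 in nasal epithelium itself, with 40 of 44 higher. In adipose, all 20 rows highest there were lower, at a median of -0.27, as were all 19 rows highest in adrenal, at -0.29, and 137 of the 154 in all. The 19 rows highest in adrenal had a median of -0.04 in adrenal, and the 14 rows highest in muscle one of -0.00 in muscle. Rows highest in lung, hippocampus and hypothalamus had medians of 0.11, 0.11 and 0.04 in those tissues.

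ENSRNOT00000116299 was the row called in nasal epithelium. Its normalized counts there were 482, 432, 206, 195 and 288 in air and 1398, 1779, 615, 860, 553 and 1054 after acrolein, so every acrolein sample was above every air sample. Among the 154 rows, 2 had no overlap with acrolein higher in this tissue, or 1.30%, against 0.892% of all rows tested. This is 1.67 on the log2 scale (SE 0.34, adjusted p = 0.0631 by limma, 5 air and 6 acrolein samples). In liver the same row was at 279 ± 31.4 normalized counts (SD, n = 5) in air and 161 ± 53.3 (SD, n = 6) after acrolein, by the choice of rows.

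The call in nasal epithelium held with edgeR (adjusted p = 0.0733) and DESeq2 (adjusted p = 0.000597), and it was lost without a trend in limma (adjusted p = 0.110). It was also lost when any of 7 samples was left out, with limma adjusted p of 0.160, 0.160, 0.135 and 0.162 without acrolein replicates 9, 10, 12 and 15, and of 0.193, 0.177 and 0.139 without air replicates 5, 6 and 8. In the 5 samples with no R in the label the log2 fold change was 1.09 (adjusted p = 0.822 by limma).

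In lung, ENSRNOT00000116299 was at 746, 469 and 655 normalized counts in acrolein replicates 13, 14 and 15, against 160, 164 and 181 in acrolein replicates 9, 10 and 12. The air lungs lay between 164 and 410. Across these samples the row was therefore high in the same lungs as the sum of the 154. In muscle it was at 26.5 to 58.1 in acrolein samples and at 50.2 to 188 in air samples, or -1.14 on the log2 scale (SE 0.35, adjusted p = 1.00 by limma).

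**Figure D5:**
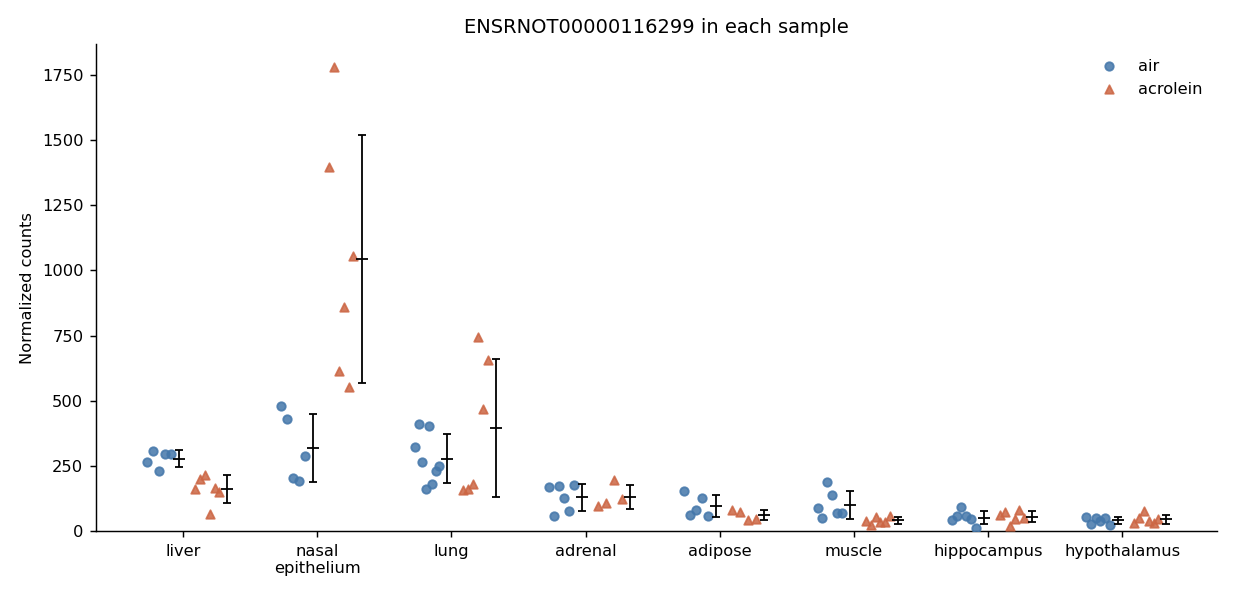
Normalized counts of ENSRNOT00000116299 in each sample, by tissue and exposure, with black bars at the mean ± SD. Acrolein samples lie above air samples in nasal epithelium and below them in liver, 3 of the 6 acrolein lungs stand above the air range, and the tables of different tissues were normalized separately.

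ENSRNOT00000083446 was the row with a positive fitted log2 fold change in all 7 other tissues. Among the reference rows, 2.14% had a negative one in none of the 7. Its mean normalized count was also higher after acrolein in all 7. In CPM this did not hold in adrenal, at 76.3 after acrolein and 79.5 in air, or in muscle, at 112 and 115. It held the highest air liver mean of the 154, at 1062 CPM, and its acrolein livers were at 85.8% of that mean. In hippocampus its normalized counts ran from 2404 to 3377 in air and from 2687 to 4099 after acrolein, or 0.25 on the log2 scale (SE 0.16, adjusted p = 0.8328 by limma). Its fold changes ranged from 0.06 in muscle to 0.25 in hippocampus and none passed the test.

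ENSRNOT00000095491 and ENSRNOT00000119431 had a negative fitted log2 fold change in 6 of the 7 tissues, hippocampus being the exception, and neither passed the test in any. For ENSRNOT00000119431 the nasal value was -0.02 (SE 0.19), and its mean normalized counts there were 1551 in air and 1554 after acrolein. In adrenal, ENSRNOT00000095491 was at 160, 62.2, 150 and 106 normalized counts after acrolein and from 130 to 383 in air, or -0.90 on the log2 scale (SE 0.33, adjusted p = 0.649 by limma). The groups overlapped. In muscle, ENSRNOT00000119431 ran from 249 to 725 after acrolein and from 503 to 1307 in air, or -0.62 on the log2 scale (SE 0.29, adjusted p = 1.00 by limma). In hypothalamus it was at -0.40 (SE 0.19, adjusted p = 0.963 by limma).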

How the data were processed

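The authors sequenced mRNA libraries of 8 tissues and counted reads per row in Partek Flow, on rn7 with Ensembl models. The deposited values are a signal: counts after division by the size factor of each sample, with each tissue table normalized separately. Dividing a column by its smallest non-zero value returned whole reads (tolerance 0.05 read) for at least 99.9995% of the values of each tissue. CPM here is a value over its column sum, times 1000000.

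Each tissue other than liver was tested with limma 3.58.1 (R 4.3.3, trend) on log2(value + 1), over rows above 0 in at least 2 samples, with Benjamini-Hochberg adjustment over all rows tested. Calls needed an adjusted p no higher than 0.1 and a fold above 1.2 or under 0.833. Fold changes on this scale understate those of low rows. edgeR 4.0.16 and DESeq2 1.42.0 on the recovered reads, other pseudocounts, filters and scalings, and each sample left out were alternatives. The functions were tested on simulated data. The labels do not tie libraries to animals, so p-values measure the spread between these samples. The same replicate numbers recur across tissues, so the tissues may share animals. Directions counted across tissues are therefore not taken as independent. The members, lists and comparisons were chosen with earlier results of these data known. Rows are named by call first and then by the number of the 7 tissues with the same direction, at most 2 each way, because identifiers could not be paired with symbols. For that reason the planned gene lists, cell type markers and sequences were not computed.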

Additional observations from a re-analysis of the deposited data

Results flagged for a closer look

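Samples far from the rest of their group were looked for in 18 groups of values, and 3 were found. Chance alone gives such a departure in about 1 of 20 groups. In adrenal, air replicate 2 had a summed CPM of 9898 over the 154 rows, against 7767 in the next. In hippocampus, air replicate 8 had 4275, against 5448 in the next lowest. In hypothalamus, acrolein replicate 11 had 10895, against 6670 in the next. What set these libraries apart was not tested.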

How the results depend on the processing

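No paired analysis was possible because no replicate number is shared by both exposure groups of a tissue: air has 1 to 8 and acrolein 9 to 16. The number of rows that met the rule, 154, was 99 with at least 10 CPM in air liver and 238 with only the lower-case livers, and ran from 163 to 452 with 1 liver left out. The number called in nasal epithelium, 1, was 0 without a trend and 0 in the samples with no R in the label, 5 with DESeq2 and 2 with the adjusted p limit at 0.2, and ran from 0 to 3 with 1 sample left out. In lung it was 1 with DESeq2, against 0. In adrenal, adipose, muscle, hippocampus and hypothalamus it was 0 under all alternatives run. The SD of the shifts between samples, from 0.175 in adrenal to 0.381 in lung, exceeded the size of the median change in each tissue but hippocampus, so that the medians moved by less than this SD under the alternatives does not show that they were stable. Their sign turned in 4 cases: to -0.00 in nasal epithelium with no R in the label, to -0.07 in lung with lower-case labels, and to -0.03 in hypothalamus without acrolein replicate 11, the sample that the limit to labels with no R also removes. The limits to labels without an R or to lower-case lungs, the adjusted p of 0.2 and the averaging of the adipose pair before the rule were chosen after seeing the data. The depth is limited by the smallest library, 2513375 reads, and identifiers without symbols kept the planned gene lists and markers from being run.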
